A study of Mus musculus with 3 samples.

Results

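Transcripts of 10 genes of the interleukin 1 (IL-1) family and the inflammasome were compared in 3 immune cell populations of the mouse gut epithelium. The genes were chosen by symbol and comprise the cytokines Il1a and Il1b, the receptor antagonist Il1rn, the receptors Il1r1 and Il1r2, the sensors Nlrp3, Nlrc4 and Mefv, the adaptor Pycard and the protease Casp1. All 10 were found among the 37224 genes counted. Every population came from RAG-2 null mice, whose lymphocytes cannot assemble antigen receptors. The iCD8a library was made from cells sorted for CD45 and CD8α, the ILC1 library from cells sorted for NKp46 and NK1.1 (group 1 innate lymphoid cells), and the CD11b+ library from cells sorted for CD45 and CD11b that lacked CD8α. The labels do not state the animals' age or whether cells of several animals were pooled, and the 3 titles carry the same date. Each population had 1 library, so no difference below has a replicate check and no test between populations was possible.

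IL-1α and IL-1β are made as precursors without a classical secretion signal and act through the receptor IL-1R1, which recruits a shared accessory chain and signals to NF-κB. IL-1R2 binds the same cytokines without signalling, and the antagonist encoded by Il1rn occupies IL-1R1 without activating it. NLRP3, NLRC4 and pyrin (the product of Mefv) are cytosolic sensors of cell damage and microbial products or activity. Once triggered they recruit caspase-1, directly or through the adaptor ASC (Pycard), and caspase-1 cleaves the IL-1β precursor and the pore former gasdermin D. In the gut, mononuclear phagocytes are a known source of IL-1β, which acts on innate lymphoid cells among others.

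Read counts on genes totalled between 21678113 and 30511296 per library. Levels are CPM, read counts scaled to a common library size with TMM factors. The range after a value is its 95% exact counting interval, which does not cover the spread between animals. The deleted gene Rag2 had 0 counts in each library. Of the sort markers, Cd8a was highest in iCD8a at 2636 CPM, Ncr1 (NKp46) and Klrb1c (NK1.1) in ILC1 at 396 and 546 CPM, and Itgam (CD11b) in CD11b+ at 845 CPM. Ptprc (CD45) stood at 2695 CPM in ILC1, 2136 in iCD8a and 1795 in CD11b+. Itgam was also counted in iCD8a, at 362 CPM, and in ILC1, at 187 CPM. The 12 macrophage and monocyte markers summed to 70.8 CPM in iCD8a, to 700.6 in ILC1 and to 8228 in CD11b+, and 0 of them were without counts in any library. The 13 neutrophil markers summed to 7.91, 44.1 and 549 CPM, and Ly6g and Elane, which define neutrophils and their precursors, had 0 counts in all 3 libraries. Mmp8, Camp, Ngp and Mpo also had 0 counts in iCD8a and ILC1. In each comparison with CD11b+, 6 of the 13 reached 5 CPM. Under the counting rule given below, 5 passed as higher in CD11b+ than in both other libraries, beside 10.7% of 10492 genes. They were Mmp9 at 279 CPM, Csf3r at 130, Retnlg at 92.9, Mmp8 at 23.5 and S100a9 at 6.17. The part of neutrophil, macrophage or dendritic cell transcripts in the CD11b+ levels below was not tested. In the same order, 10 dendritic cell markers summed to 1266, 2240.3 and 3368 CPM, and 18 epithelial markers to 901, 519 and 2006 CPM. A few genes carry these sums. The dendritic medians were 6.22, 1.14 and 156 CPM, with Itgax and Irf8 high in all 3 libraries. By the rule below, 6 of the 10 were higher in CD11b+ than in iCD8a, beside 13.4% of 10821 genes. The other way went 1, beside 6.13%. Against ILC1, 5 were higher in CD11b+, beside 13% of 10734 genes, and 1 was lower, beside 6.01%. Ccl22 stood at 1.23, 0.727 and 771 CPM. The epithelial medians were 8.91, 7.93 and 65 CPM, with Cdh1 at 359, 289 and 208 CPM. The 11 lymphocyte markers summed to 51963, 8184 and 4172 CPM. In CD11b+, Gzma gave 2043 and Gzmb 1198 of these CPM, and the part of lymphocyte transcripts in the CD11b+ levels below was not tested. Sums were 8.97, 9.63 and 74.2 CPM for 7 mast cell and basophil markers, and 592, 330.3 and 200.6 CPM for 7 markers of stroma and endothelium, of which Pecam1 gave 568, 329 and 196 CPM. The mitochondrial genome supplied 9.53% of gene counts in CD11b+, against 1.60% in iCD8a and 2.09% in ILC1. In sorted bulk cells, fewer cells of a type and less RNA per cell cannot be told apart.

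The cytokines, their antagonist, the decoy receptor and all 3 sensors were most abundant in CD11b+, whereas Casp1 and Pycard stood close to level in the 3 libraries and Il1r1 was alike in CD11b+ and ILC1. Here a gene is called apart between a pair of libraries if the library with more of it reached 5 CPM, the ratio was 4 or more and the interval's bound nearer to 1 was 2 or more. Against iCD8a, 8 of the 10 genes were higher in CD11b+, where the same rule counted 13.4% of 10821 genes, and 0 were lower, where it counted 6.13%. Against ILC1, 7 of 10 were higher in CD11b+, beside 13% of 10734 genes, and 0 were lower, beside 6.01%. The same 7 passed against both libraries, beside 10.7% of 10492 genes. Between the lymphoid libraries, 3 of 10 were higher in ILC1, beside 4.89% of 10110 genes, and 0 were higher in iCD8a, beside 3.52%. These 3 (Il1a, Il1r1 and Nlrp3) lay under 20 CPM, so that 0 passed with a minimum of 20 CPM, and 5 passed with a minimum of 1 CPM. With libraries scaled by total gene count alone, 1 gene, Il1r2, passed as higher in iCD8a and 3 in ILC1. In that comparison 7 of the 10 reached 5 CPM in either library, and in the other comparisons all 10 did. The comparisons share libraries, so their counts are not independent.

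**Figure D1:**
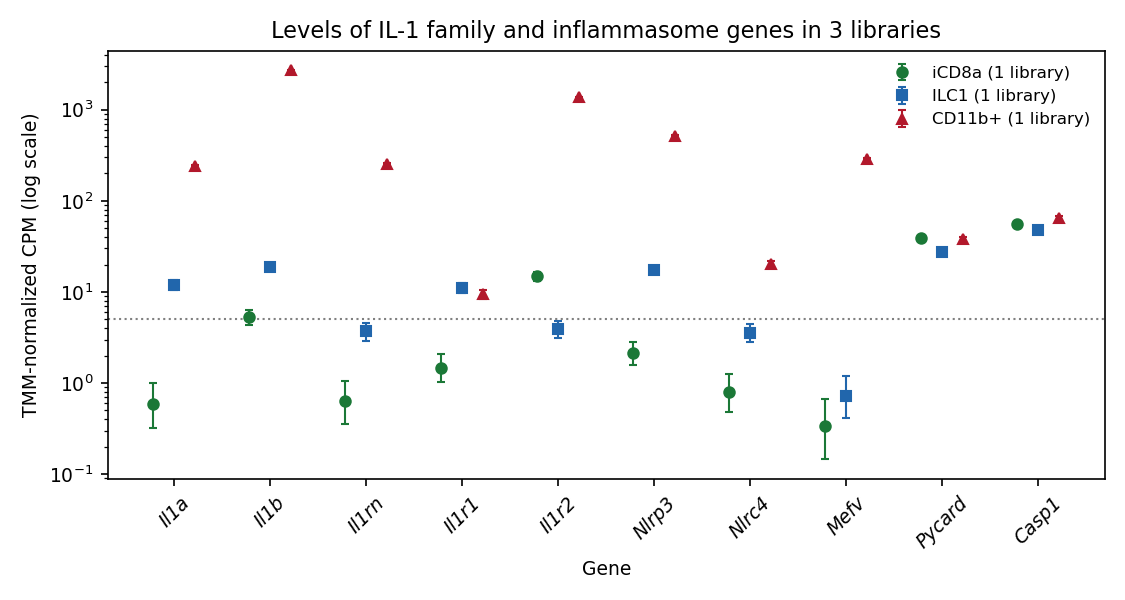
TMM-normalized CPM of the 10 genes (log axis) in the iCD8a, ILC1 and CD11b+ libraries, 1 library each, with 95% Poisson counting intervals; the dotted line marks 5 CPM. Il1b reached 2694 CPM in CD11b+ against 5.25 in iCD8a and 18.8 in ILC1, while Casp1 lay between 48.2 and 64.4 CPM.

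Il1b (ENSMUSG00000027398), the main secreted cytokine of the pathway, stood at 2694 CPM in CD11b+ (2675 to 2713), 18.8 in ILC1 (17 to 20.7) and 5.25 in iCD8a (4.36 to 6.26). The CD11b+ library was far above both others, and ILC1 was above iCD8a by less than the 4-fold needed to count. CD11b+ was 513-fold above iCD8a (431 to 617) and 143-fold above ILC1 (130.03 to 158), and ILC1 was 3.59-fold above iCD8a (2.93 to 4.42).

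Il1a (ENSMUSG00000027399), which encodes a cytokine that also acts from damaged cells, stood at 239 CPM in CD11b+, 12 in ILC1 and 0.592 in iCD8a. All 3 libraries were apart, in the same order as for Il1b. CD11b+ was 404-fold above iCD8a (240.3 to 738) and 19.9-fold above ILC1 (17.6 to 22.6), and ILC1 was 20.2-fold above iCD8a (11.9 to 37.5), where 14 reads were counted. Il1b exceeded Il1a per kilobase of exon by 11.7-fold in CD11b+ (11.4 to 12), 9.17-fold in iCD8a (5.26 to 17.3) and 1.62-fold in ILC1 (1.39 to 1.9). With the longest coding transcript as the length, Il1b and Il1a stood at 1987 and 121 CPM per kilobase in CD11b+, 3.87 and 0.3 in iCD8a, and 13.9 and 6.08 in ILC1. Per kilobase, Il1a made up a larger part of the IL-1 agonist transcripts in ILC1 than in the other libraries. Antisense transcripts overlap exons of both cytokine genes. Il1bos, on the strand opposite Il1b, had 2, 5 and 250 counts in iCD8a, ILC1 and CD11b+, and Gm14023, opposite Il1a, had 14, 29 and 477. No strand setting is stated, so it is not known how reads on the shared exons were assigned. Whether some were set aside as ambiguous is not known either.

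Il1rn (ENSMUSG00000026981), whose secreted product blocks IL-1R1, stood at 254 CPM in CD11b+, 3.68 in ILC1 and 0.635 in iCD8a. The antagonist followed the cytokines, highest in CD11b+ and lowest in iCD8a. CD11b+ was 399.9-fold above iCD8a (242 to 715) and 69-fold above ILC1 (55.4 to 86.9). ILC1 was 5.8-fold above iCD8a (3.32 to 10.8) at a level under the 5 CPM minimum. Per kilobase, Il1b exceeded its antagonist in each library, by 30.8-fold in CD11b+ (30.1 to 31.6), 24-fold in iCD8a (14 to 44.2) and 14.8-fold in ILC1 (11.7 to 19.1). With the longest coding transcript as the length, these ratios were 19.4, 15.1 and 9.33. The merged exons of Il1rn span 5535 bases and its longest coding transcript 2474.

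The promoter windows of 5 genes are printed here because they are the 3 with the largest folds of CD11b+ over iCD8a (Mefv, Il1b and Il1a) and the 2 nearest to level (Casp1 and Pycard). Each runs from 250 bases before to 50 bases after a start site in RefSeq (build GRCm38.p6), and reads 5′ to 3′ along the gene. The windows are chr16:3718075-3718374 (minus strand) for Mefv, chr2:129371090-129371389 (minus) for Il1b, chr2:129309923-129310222 (minus) for Il1a, chr9:5298267-5298566 (plus) for Casp1 and chr7:127993818-127994117 (minus) for Pycard. Capitals mark matches, on either strand, to the TATA box TATAAA, the ETS core GAGGAA that PU.1 and its relatives bind, the C/EBP motif TTNNGNAA and the NF-κB consensus.
Mefv: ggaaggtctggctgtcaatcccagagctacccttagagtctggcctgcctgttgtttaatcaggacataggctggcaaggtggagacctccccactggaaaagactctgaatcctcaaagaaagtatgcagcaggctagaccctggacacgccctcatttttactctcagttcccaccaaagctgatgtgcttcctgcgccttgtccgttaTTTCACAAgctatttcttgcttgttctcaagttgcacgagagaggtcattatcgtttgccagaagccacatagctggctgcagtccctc
Il1b: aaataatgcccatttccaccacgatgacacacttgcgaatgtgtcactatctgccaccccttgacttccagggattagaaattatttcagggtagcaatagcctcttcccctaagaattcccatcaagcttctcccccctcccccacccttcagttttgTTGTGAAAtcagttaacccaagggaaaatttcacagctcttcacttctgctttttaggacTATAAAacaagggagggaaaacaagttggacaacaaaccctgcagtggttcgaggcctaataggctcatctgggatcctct
Il1a: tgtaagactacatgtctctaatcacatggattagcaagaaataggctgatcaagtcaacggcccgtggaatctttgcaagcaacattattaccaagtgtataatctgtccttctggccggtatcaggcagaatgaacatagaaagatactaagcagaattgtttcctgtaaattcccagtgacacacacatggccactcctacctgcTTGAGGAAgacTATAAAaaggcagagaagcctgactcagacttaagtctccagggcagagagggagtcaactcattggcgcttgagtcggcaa
Casp1: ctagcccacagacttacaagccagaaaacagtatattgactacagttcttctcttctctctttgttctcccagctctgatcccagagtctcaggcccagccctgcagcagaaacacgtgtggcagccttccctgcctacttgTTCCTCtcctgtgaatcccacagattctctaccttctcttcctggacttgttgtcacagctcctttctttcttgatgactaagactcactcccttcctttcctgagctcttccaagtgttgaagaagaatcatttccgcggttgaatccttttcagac
Pycard: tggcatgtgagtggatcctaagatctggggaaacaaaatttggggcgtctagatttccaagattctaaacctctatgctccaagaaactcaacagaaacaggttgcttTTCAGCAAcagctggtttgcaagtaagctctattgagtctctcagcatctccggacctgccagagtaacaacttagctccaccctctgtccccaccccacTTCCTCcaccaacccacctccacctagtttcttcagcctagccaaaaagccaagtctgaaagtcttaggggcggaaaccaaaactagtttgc
Il1b and Il1a each hold a TATAAA on the gene's own strand, at positions -31 to -26 and -32 to -27 from the start. Mefv, Casp1 and Pycard do not hold those letters in their windows, and the only match in Mefv is to the C/EBP motif. In Il1a the ETS core lies inside the C/EBP match, so the 2 matches are 1 stretch of sequence. Over the 14 windows of the 10 genes, TATAAA was found in 3, GAGGAA in 4, TTNNGNAA in 11 and the NF-κB consensus in 2. By gene, the matches lay in 3, 4, 8 and 2 of the 10. Il1rn has overlapping windows that share their TTNNGNAA matches, so these sites are counted more than once among the 11. Its TATAAA lies on the opposite strand, at positions 15 to 20 after the start. Among all 32851 windows in the RefSeq table the shares were 13.6%, 28.3%, 40.7% and 8.46%. These are matches of letters, and binding was not measured.

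The receptors divided. Il1r2 (ENSMUSG00000026073), the decoy that binds IL-1 without signalling, stood at 1373 CPM in CD11b+, 14.8 in iCD8a and 3.91 in ILC1. Of the 8 genes higher in CD11b+ than in iCD8a, it was the only one with a higher level in iCD8a than in ILC1, by 3.79-fold (2.99 to 4.86), short of the 4-fold needed to count. CD11b+ was 92.7-fold above iCD8a (83.4 to 103) and 351-fold above ILC1 (284 to 439). Il1r1 (ENSMUSG00000026072), the signalling receptor, stood at 11 CPM in ILC1 (9.61 to 12.4), 9.39 in CD11b+ (8.3 to 10.6) and 1.48 in iCD8a (1.03 to 2.06). The ILC1 and CD11b+ intervals overlapped, and the ratio of ILC1 over CD11b+ was 1.17 (0.975 to 1.39). Il1r1 was 7.39-fold higher in ILC1 than in iCD8a (5.17 to 10.9) and 6.34-fold higher in CD11b+ than in iCD8a (4.45 to 9.3).

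The balance of decoy over signalling receptor does not depend on how libraries are scaled. In iCD8a, 350 reads fell on Il1r2 and 35 on Il1r1. In ILC1 they had 86 and 241 reads, but the exons of Il1r2 span 1908 bases and those of Il1r1 6363, so raw reads do not order them. In CD11b+ the counts were 38725 and 265. Per kilobase of exon the decoy exceeded the signalling receptor by 487-fold in CD11b+ (432 to 552) and by 33.3-fold in iCD8a (23.5 to 48.7), while in ILC1 the ratio was 1.19 (0.919 to 1.53). These intervals do not cover the choice of length. With the longest coding transcript, Il1r2 and Il1r1 stood at 967 and 1.61 CPM per kilobase in CD11b+, 10.4 and 0.255 in iCD8a, and 2.75 and 1.88 in ILC1. The ratios were chosen after these counts were seen.

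Il1r2 and Il1r1 stand at one end of a run of 6 neighbouring receptor genes on chromosome 1, followed in the RefSeq order by Il1rl2, Il1rl1, Il18r1 and Il18rap. Per kilobase, CD11b+ and iCD8a had their highest level of the run at its start, in Il1r2. ILC1 had it near the other end, in Il18r1. In CD11b+, Il1r2 reached 719 CPM per kilobase and the other 5 lay between 0.668 and 2.28. In ILC1, the IL-18 receptor chains Il18r1 and Il18rap reached 96.5 and 79.3 CPM per kilobase and the other 4 lay between 0.395 and 2.05. In iCD8a, Il1r2 reached 7.76 CPM per kilobase and Il1rl2, a receptor for IL-36, 1.57. Il1rl2 had the smallest spread of the run, with 14.6 CPM in CD11b+, 12.6 in ILC1 and 10.7 in iCD8a. Il1rl1, the IL-33 receptor, rested on 1 read in iCD8a. The cytokine genes lie on chromosome 2, where Il1a and Il1b are adjacent protein-coding genes. Il1rn closes a run of 6 family genes elsewhere on that chromosome, in which Il36a, Il36b, Il36rn and Il1f10 had 0 counts in each library.

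**Figure D2:**
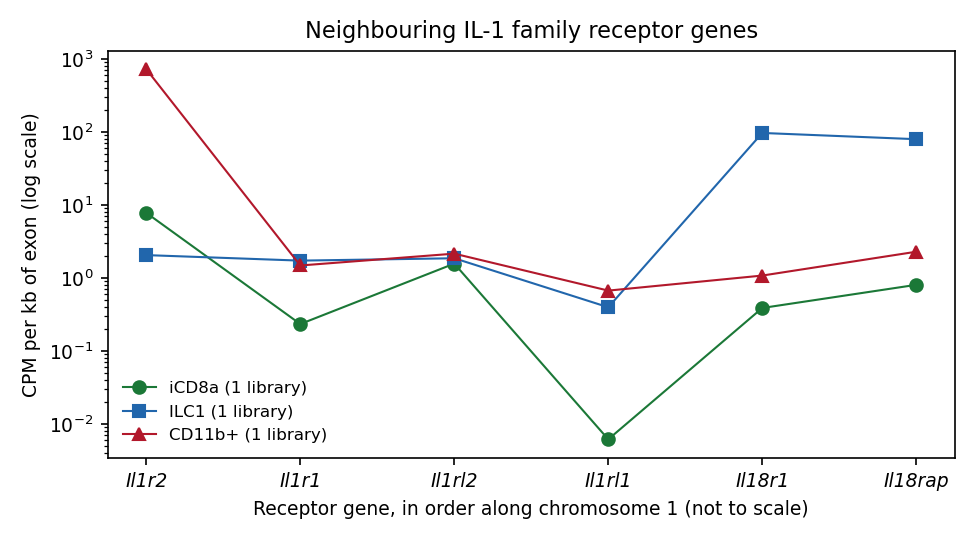
Levels of 6 neighbouring IL-1 family receptor genes, as TMM-normalized CPM per kilobase of merged exon (log axis), in their order along chromosome 1 with spacing not to scale; 1 library per population, and lines join values of a library. Il1r2 peaked in CD11b+ at 719 and Il18r1 in ILC1 at 96.5.

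Among the sensors, Nlrp3 (ENSMUSG00000032691), which responds to membrane damage and ion loss, stood at 515 CPM in CD11b+, 17.5 in ILC1 and 2.12 in iCD8a. All 3 libraries were apart. CD11b+ was 243-fold above iCD8a (184 to 328) and 29.3-fold above ILC1 (26.5 to 32.6), and ILC1 was 8.29-fold above iCD8a (6.16 to 11.4). Mefv (ENSMUSG00000022534), which encodes pyrin, stood at 286 CPM in CD11b+, 0.727 in ILC1 and 0.339 in iCD8a. The low libraries rested on 16 and 8 reads and did not differ beyond counting error (2.15-fold, 0.867 to 5.8). CD11b+ exceeded iCD8a for Mefv by 846-fold (429 to 1959.6) and ILC1 by 394-fold (242 to 689).

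Nlrc4 (ENSMUSG00000039193), which acts with NAIP proteins on bacterial flagellin and secretion needles, had the lowest level per kilobase of the 3 sensors in CD11b+. It stood at 20.1 CPM there, 3.54 in ILC1 and 0.804 in iCD8a. CD11b+ was 25-fold above iCD8a (15.9 to 41.9) and 5.68-fold above ILC1 (4.48 to 7.29), folds below those of Nlrp3 and Mefv. ILC1 was 4.41-fold above iCD8a (2.64 to 7.71) at a level under the minimum. Per kilobase, Nlrp3 exceeded Nlrc4 by 30.3-fold in CD11b+ (27.9 to 33), 5.86-fold in ILC1 (4.59 to 7.58) and 3.12-fold in iCD8a (1.81 to 5.6).

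The shared machinery was spread differently. Casp1 (ENSMUSG00000025888), the protease, stood at 64.4 CPM in CD11b+ (61.5 to 67.5), 55.9 in iCD8a (52.9 to 59) and 48.2 in ILC1 (45.4 to 51.2). Pycard (ENSMUSG00000030793), the adaptor, stood at 38.9 CPM in iCD8a (36.5 to 41.5), 38.1 in CD11b+ (35.8 to 40.4) and 27.2 in ILC1 (25.1 to 29.5). Neither gene was apart in any comparison. The largest ratio was 1.43 (1.29 to 1.59), for Pycard in iCD8a over ILC1. CD11b+ over iCD8a was 1.15 for Casp1 (1.07 to 1.24), which turned to 0.979 under scaling by total gene count alone. Pycard in iCD8a over CD11b+ was 1.02 (0.935 to 1.12). Epithelial cells also express both genes. The 18 epithelial markers differed between libraries as given above. Of these, 16 passed as higher in CD11b+ than in ILC1, beside 13% of 10734 genes. The part of epithelial transcripts in the levels of Casp1 and Pycard was not tested.

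Levels per kilobase of exon put the 10 genes of each library on a common scale. In CD11b+ the order was Il1b at 1413 CPM per kilobase, Il1r2 at 719, Nlrp3 at 127, Il1a at 121, Mefv at 88.1, Il1rn at 45.9, Casp1 at 43, Pycard at 10, Nlrc4 at 4.19 and Il1r1 at 1.48. In iCD8a it opened with Casp1 at 37.3 CPM per kilobase, Pycard at 10.2 and Il1r2 at 7.76. Il1b followed at 2.75, and the other 6 lay between 0.104 and 0.522. In ILC1 Casp1 led at 32.2 CPM per kilobase, ahead of Il1b at 9.86, Pycard at 7.16, Il1a at 6.08 and Nlrp3 at 4.32. Mefv was the lowest of the 10 in iCD8a and in ILC1. With the longest coding transcript as the length, Il1rn in CD11b+ stood at 103 CPM per kilobase, above Mefv at 92.5, and Il1r2 in iCD8a at 10.4, above Pycard at 10.2, so the order of these pairs depends on the length used. Casp1 exceeded Il1b, which encodes its substrate, in both lymphoid libraries, while Il1b exceeded Casp1 by 32.8-fold in CD11b+ (31.3 to 34.4). The longest coding transcript puts Il1b at 1987 CPM per kilobase in CD11b+, 13.9 in ILC1 and 3.87 in iCD8a, with Casp1 unchanged. Nlrp3 stood to Pycard at 12.7 in CD11b+ (11.9 to 13.5), 0.604 in ILC1 (0.53 to 0.687) and 0.0509 in iCD8a (0.0375 to 0.0677).

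**Figure D3:**
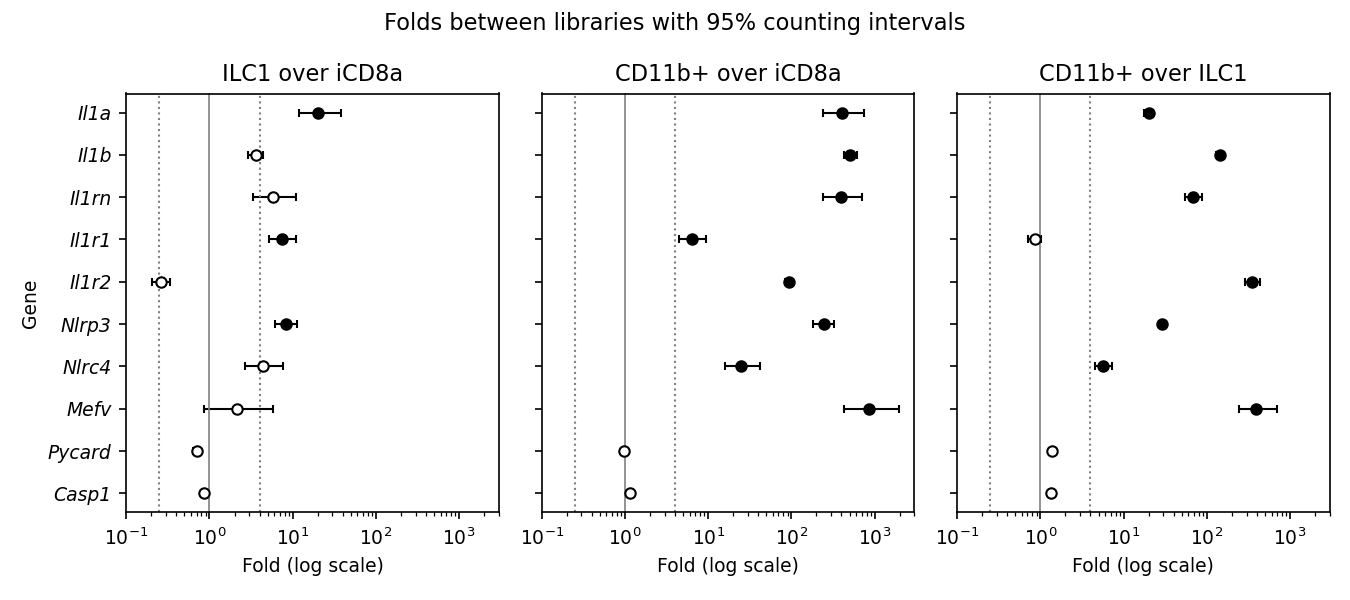
Folds of the 10 genes between libraries (log axis) in 3 panels, ILC1 over iCD8a, CD11b+ over iCD8a and CD11b+ over ILC1, with 95% exact counting intervals; filled points passed the counting rule, open points did not, and dotted lines mark 4-fold either way. In the middle panel 8 points are filled, from 6.34-fold for Il1r1 to 846-fold for Mefv.

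Macrophage and monocyte markers were counted in both lymphoid libraries, so each gene's level there was set beside these markers as a percentage of its CD11b+ level. In ILC1, 11 of the 12 markers lay between 1.22% (Fcgr1) and 5.85% (Mrc1) of their CD11b+ level, with Lyz2 at 5.2%, and Ccr2 lay at 107%. Il1a at 5.02% (4.42 to 5.68), Nlrp3 at 3.41% (3.07 to 3.77) and Il1rn at 1.45% (1.15 to 1.8) fell inside that range. Il1b at 0.698% (0.632 to 0.769), Il1r2 at 0.285% (0.228 to 0.352) and Mefv at 0.254% (0.145 to 0.413) fell below it. Nlrc4 at 17.6% (13.7 to 22.3), Pycard at 71.5%, Casp1 at 74.8% and Il1r1 at 117% lay above it.

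In iCD8a the macrophage markers were lower, at a median of 0.365% of CD11b+ and a range from 0.135% (Lyz2) to 24.7% (Ly6c2). Mefv at 0.118% (0.051 to 0.233), Il1b at 0.195%, Il1a at 0.248% and Il1rn at 0.25% lay below that median, and Nlrp3 at 0.411% lay just above it. Il1r2 stood at 1.08% (0.968 to 1.2), Nlrc4 at 3.99% and Il1r1 at 15.8%. The part that macrophage transcripts play in the levels of either lymphoid library was not tested. The percentages share the CD11b+ library as denominator.

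**Figure D4:**
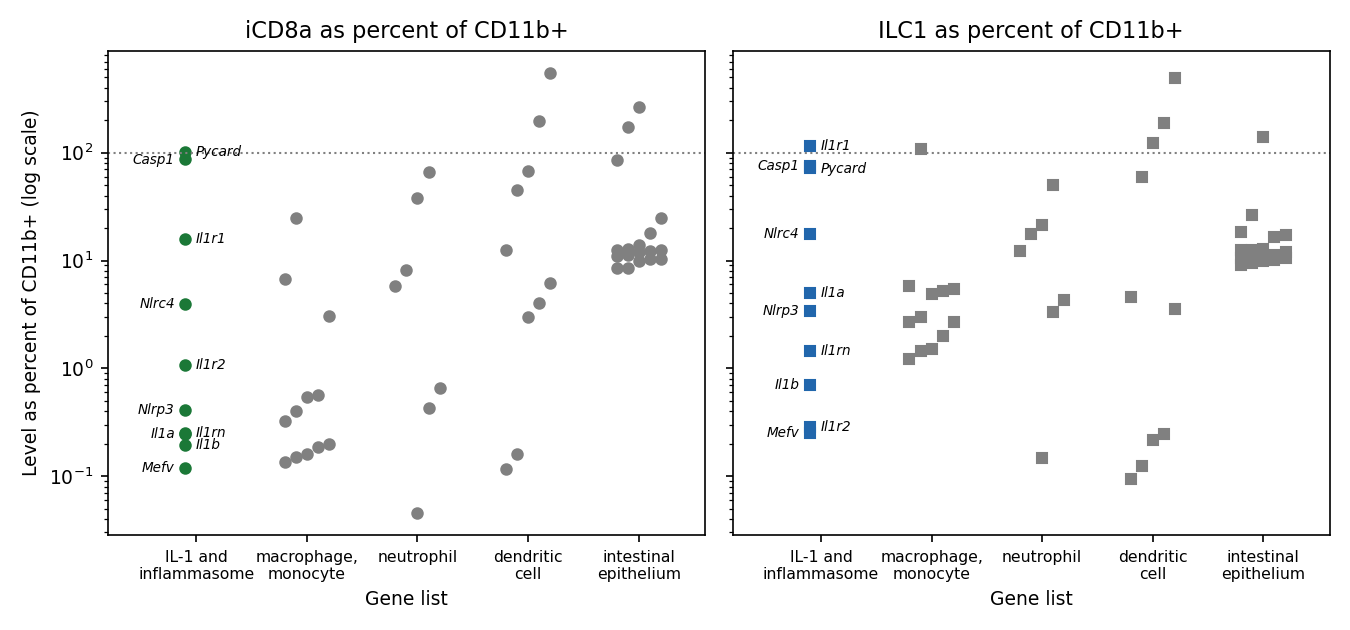
Level of each gene in iCD8a (left) and ILC1 (right) as a percentage of its level in CD11b+ (log axis), for the 10 IL-1 and inflammasome genes (coloured, named) and for 4 marker lists (grey), over genes with at least 20 counts in CD11b+; genes at 0 counts are not drawn, and the dotted line is 100%. In ILC1, Il1a at 5.02% and Nlrp3 at 3.41% lay among the macrophage markers, and Mefv at 0.254% and Il1r2 at 0.285% below them.

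The wider pathway was read from 6 lists of 77 genes, of which 76 were found. Il18, an IL-1 family cytokine that caspase-1 also matures, was the only one of 8 further ligands and inhibitors to pass. In each comparison with CD11b+, 2 of the 8 reached 5 CPM, and Il18 was higher in CD11b+, beside 10.7% of 10492 genes. It stood at 15.4 CPM in CD11b+, 0.423 in iCD8a and 0.273 in ILC1, so that CD11b+ was higher by 36.4-fold (19.6 to 76.5) and 56.6-fold (25.8 to 155). Epithelial cells also make Il18. Beside 13.4% of 10821 genes, 15 of 18 epithelial markers passed as higher in CD11b+ than in iCD8a. Their part in this difference was not tested. Il33, an alarmin, had 5, 4 and 15 counts in iCD8a, ILC1 and CD11b+.

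Of 8 further receptor chains, 5 reached 5 CPM in each comparison. In ILC1, 3 were higher than in CD11b+, beside 6.01% of 10734 genes, and 2 were higher than in iCD8a, beside 4.89% of 10110. In iCD8a, 1 was higher than in CD11b+, beside 6.13% of 10821. Il18r1 and Il18rap, which form the IL-18 receptor, were 89.8-fold (76.3 to 106) and 34.8-fold (31.6 to 38.4) above CD11b+ in ILC1. Sigirr, an inhibitory member, stood at 57.6 CPM in ILC1, 40.8 in iCD8a and 10.1 in CD11b+. Its call against CD11b+ in iCD8a, at 4.03-fold (3.53 to 4.61), was lost with DESeq2 size factors. Il1rap, the accessory chain that IL-1R1 needs to signal, stood at 15.8 CPM in iCD8a, 11.1 in CD11b+ and 10.7 in ILC1. It was not apart in any comparison, whereas Il1r1 was lower in iCD8a than in either other library.

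Of 16 genes that carry the signal below the receptor, 1 was apart in any comparison. Peli1, a ubiquitin ligase, was 4.32-fold higher in ILC1 than in CD11b+ (4.12 to 4.53), where the rule counted 6.01% of 10734 genes. The adaptor Myd88 stood at 127 CPM in CD11b+, 54.2 in ILC1 and 47.4 in iCD8a, and the kinase Irak2 at 268, 435 and 222 CPM in that order. The list's median log2 ratio was 0.09 for ILC1 over CD11b+, -0.21 for iCD8a over ILC1 and -0.26 for iCD8a over CD11b+. Medians over all 13649 genes at 1 CPM or more in any library were 0.00, 0.04 and 0.04 in that order. For the 10 IL-1 and inflammasome genes they were -4.59, -1.97 and -7.22.

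Of 20 other sensors and partners found, 18 reached 5 CPM in each comparison with CD11b+. Higher in CD11b+ than in each lymphoid library were 5, beside 10.7% of 10492 genes: Nlrp1a, Nlrp1b, Nlrp6, Nlrp12 and Nod2. Nod2, a sensor of bacterial cell wall, stood at 126 CPM in CD11b+, 13.6 in iCD8a and 3.41 in ILC1. Nlrp1b stood at 61.4, 12.9 and 4.86 CPM in the same order. Nlrc3, a regulator described as inhibitory, ran the other way at 24.8 CPM in CD11b+, 212 in iCD8a and 316 in ILC1, and passed in both. Nlrc5, which drives MHC class I genes, and P2rx7, the ATP-gated channel that triggers NLRP3, passed in ILC1 over CD11b+, Nlrc5 at 4.61-fold (4.4 to 4.82) and P2rx7 at 4.24-fold (3.97 to 4.54). Nlrp6 is also an epithelial gene, at 8.65 CPM in CD11b+, and the part of epithelial transcripts in its level was not tested. Between iCD8a and ILC1, 15 of the sensor list reached 5 CPM and 0 were apart. Over all 10110 genes at that level, 3.52% were higher in iCD8a and 4.89% in ILC1. Nod2 lay just under the cut, 3.998-fold higher in iCD8a than in ILC1 (3.1 to 5.21).

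Some inflammasome components, like Casp1 and Pycard, were not apart in any comparison. Aim2, a sensor of cytosolic DNA, stood at 144 CPM in ILC1, 95.3 in CD11b+ and 62.7 in iCD8a. Nek7, the kinase that NLRP3 needs, stood at 132, 82 and 97.7 CPM in that order. Pstpip1, a partner of pyrin, stood at 144, 87.2 and 92.8 CPM, while Mefv itself was below 1 CPM in the lymphoid libraries. Naip2, Naip5 and Naip6, which pair with NLRC4, stood between 1.74-fold and 3.26-fold higher in CD11b+ than in the lymphoid libraries. Naip genes are close copies of each other and their single levels are uncertain, since reads with several alignments were not counted.

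Of 10 further inflammatory caspases and pore formers, 6 reached 5 CPM in ILC1 or iCD8a, and 7 did in each comparison with CD11b+. Higher in ILC1 than in iCD8a were 3, beside 4.89% of 10110 genes. Higher in CD11b+ than in iCD8a were 3, beside 13.4% of 10821 genes. Between ILC1 and CD11b+ 0 were apart, where the rule counted 6.01% of 10734 genes higher in ILC1 and 13% in CD11b+. Casp4, which encodes the caspase that senses lipopolysaccharide and lies beside Casp1 on chromosome 9, stood at 108 CPM in ILC1, 39.6 in CD11b+ and 24 in iCD8a. It was 4.49-fold higher in ILC1 than in iCD8a (4.1 to 4.93), whereas its neighbour Casp1 was not apart. Gsdmd, which encodes the pore former gasdermin D, stood at 148 CPM in CD11b+, 105 in ILC1 and 105 in iCD8a. Ninj1, which ruptures the membrane of dying cells, stood at 226 CPM in CD11b+, 60.5 in ILC1 and 12.7 in iCD8a. Serpinb1a, an inhibitor of proteases, stood at 42.8, 36.2 and 2.84 CPM in that order. Gsdme, another gasdermin, passed in CD11b+ over iCD8a, at 13.5 against 2.79 CPM, with 4.68 CPM in ILC1.

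Of 14 genes that IL-1 can induce, 9 reached 5 CPM in ILC1 or iCD8a and 10 in CD11b+ or iCD8a. Higher in ILC1 than in iCD8a were 8, beside 4.89% of 10110 genes. Higher in CD11b+ than in iCD8a were 8, beside 13.4% of 10821 genes, and in either comparison 0 were higher in iCD8a. Between ILC1 and CD11b+, 11 reached 5 CPM. Of these, 4 were higher in CD11b+ (Il6, Cxcl2, Ptgs2 and Il23a), beside 13% of 10734 genes. Higher in ILC1 were 2 (Tnfaip3 and Saa3), beside 6.01%. Ptgs2, the inducible cyclooxygenase, stood at 1233 CPM in CD11b+, 16.6 in ILC1 and 2.24 in iCD8a, and the neutrophil chemoattractant Cxcl2 at 325, 33.4 and 0.973 CPM.

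Other genes of the list had their highest level in ILC1. Nfkbiz, a regulator of secondary response genes, stood at 1546 CPM in ILC1, 575 in CD11b+ and 55 in iCD8a, and Nfkbia, the NF-κB inhibitor, at 1305, 842 and 107 CPM. Neither was apart between ILC1 and CD11b+, at 2.69-fold and 1.55-fold. Icam1, an adhesion molecule, stood at 1121 CPM in ILC1, 318 in CD11b+ and 80.1 in iCD8a, and passed in ILC1 over iCD8a alone. Tnf, an inflammatory cytokine, was highest in CD11b+ at 49 CPM, with 23.9 in ILC1 and 4.02 in iCD8a. Tnfaip3, which encodes the ubiquitin-editing enzyme A20, stood at 7193 CPM in ILC1, 2002 in iCD8a and 1183 in CD11b+, 6.08-fold higher in ILC1 than in CD11b+ (6.01 to 6.15). Saa3, an acute phase protein, had 0 counts in iCD8a. With iCD8a set to a floor of 3 counts, ILC1 was 169.7-fold higher, and the counting interval's lower bound was 137-fold. Cxcl1 also had 0 counts in iCD8a. On the same floor, Cxcl1 in iCD8a was 120.9-fold below CD11b+ and 70.5-fold below ILC1. The lower bounds of the counting intervals were 97.9-fold and 56.8-fold. The list's median log2 ratio of iCD8a over CD11b+ was -5.59, or -4.22 with genes at 0 set to the floor. Many other signals induce these genes, and whether IL-1 did so here was not tested.

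**Figure D5:**
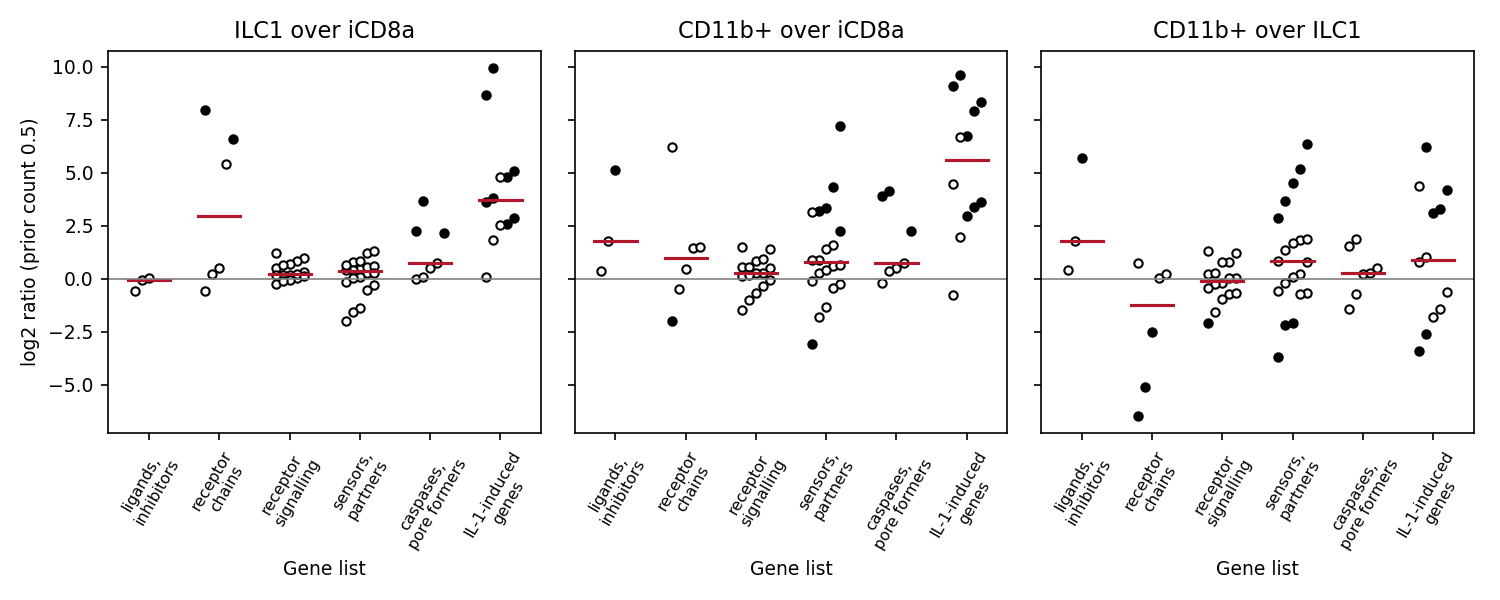
log2 ratios between libraries (prior count 0.5) for genes of 6 further lists at 1 CPM or more in any library, in 3 panels; filled points passed the counting rule, open points did not, and red bars are list medians. Receptor signalling has 1 filled point in the 3 panels together, while IL-1-induced genes have 8 in each of the panels against iCD8a; ratios of genes at 0 counts in a library depend on the prior count.

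The genes whose pattern over the 3 libraries lay nearest to Il1b were ranked among 7988 protein-coding genes at 20 CPM or more, by distance in the log2 ratios of iCD8a and ILC1 over CD11b+. The 5 nearest were Clec4a1, Adgre4, Pilra, Pla2g7 and Clec4n, at distances from 0.11 to 0.39 log2 units. Pla2g7 stood at 498 CPM in CD11b+, 3.59 in ILC1 and 0.762 in iCD8a. Clec4a1 was the nearest, at 72.8, 0.454 and 0.127 CPM. With 3 libraries, likeness of this kind is a description of 2 ratios.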

How the data were processed

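RNA-seq libraries of iCD8a, ILC1 and CD11b+ cells, 1 each, were grouped by the cell type label. Per the series' design text, the authors aligned reads with TopHat and deposited raw read counts per Ensembl gene made with HTSeq. CASAVA 1.9 and TopHat2 are named in the submitters' processing notes. For the genome build, annotation and strand setting, nothing is given in the sources used here. The 5 rows that name no gene stayed out of library sizes. Reads with several alignments made up 26.9%, 34.5% and 30.5% of all rows in iCD8a, ILC1 and CD11b+, reads in no gene 9.31%, 11% and 8.56%, and ambiguous reads 1.08%, 0.889% and 0.922%.

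Of 37224 gene IDs, 35449 matched a symbol, and the IL-36 genes were matched through RefSeq synonyms. Gbp5 did not match and was not analysed here. Merged exon lengths came from the GENCODE mouse annotation, and gene order and promoter windows from RefSeq (GRCm38.p6). TMM factors (edgeR 4.0.16, R 4.3.3) were 1.09, 0.992 and 0.925. Folds carry 95% Clopper-Pearson intervals and levels exact Poisson intervals (scipy 1.17.1, Python 3.11.15). No molecular identifiers are described, so reads may be copies of each other, and intervals and floors (3 counts) cover only counting error. With 1 library per group edgeR and DESeq2 1.42.0 gave scaling factors only. The steps were tested on simulated counts.

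The genes, lists and rules were chosen with earlier results of these data known. Named were all 10 genes and the 5 genes nearest to Il1b, and list genes apart in any comparison or at 20 CPM or more could be named, of which some are given. Il33, Il1rap, Il1rl1, Il1rl2, the ligand genes at 0 counts, the single marker genes given and the within-library ratios were chosen after their values were seen. Alternatives covered scaling, the level minimum, the fold, depth, the genes in the library size, the prior count and, added after seeing the data, the transcript length.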

Additional observations from a re-analysis of the deposited data

How the results depend on the processing

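No paired analysis was possible because each population had 1 library. Across 6 alternatives that rescale or thin the libraries, the 30 folds of the 10 genes moved by at most 1.18 times, and 0 of those that passed the rule changed direction. The numbers of the 10 genes apart from CD11b+ stayed within 1.5 times of those reported under all 11 alternatives. Between iCD8a and ILC1, the number higher in ILC1 went from 3 to 5 with a minimum of 1 CPM or none, and to 0 with a minimum of 20 CPM. The number higher in iCD8a went from 0 to 1 with total gene count alone and with a fold of at least 2. Over the 6 further lists, the number higher in iCD8a than in ILC1 went from 0 to 1 with total gene count, thinned libraries or mitochondrial genes left out, and to 2 with a fold of at least 2. The number higher in iCD8a than in CD11b+ went from 2 to 1 with DESeq2 factors, a fold of at least 8 or thinned libraries, and to 6 with a fold of at least 2. The number higher in CD11b+ than in iCD8a went from 17 to 10 with a minimum of 20 CPM. Between ILC1 and CD11b+, the number higher in ILC1 went from 9 to 4 with a fold of at least 8, and the number higher in CD11b+ from 10 to 5 with a minimum of 20 CPM and to 18 with a fold of at least 2. A stricter minimum or fold admits fewer genes by construction, and for the scaling changes the cause was not tested. Of 21 ratios within a library, 8 left their counting interval with another transcript length. At the depth here the floor of 3 counts was 0.106 CPM in CD11b+, 0.127 in iCD8a and 0.136 in ILC1. The exact counting interval of a gene at 0 counts reached 0.131, 0.156 and 0.168 CPM in that order.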
